A study of Mus musculus with 23 samples.

Results

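Feedback genes of the extracellular signal-regulated kinase (ERK) pathway and 2 immediate early response genes were followed in whole mouse hippocampus. The 8 genes were the dual-specificity phosphatases Dusp1, Dusp4, Dusp5 and Dusp6, the Sprouty genes Spry2 and Spry4, and the immediate early response genes Ier2 and Ier5. They were taken by symbol from the table of counts, which held 1 row for each of the 8 among its 55335 genes, and all 8 had enough counts to be tested in every comparison. RNA sequencing covered 23 hippocampus libraries from 2 strains of female mice, the 3xTg model of Alzheimer's disease and a wild-type (WT) strain control labelled C57BL/6J x 129S1. The 3xTg strain holds human APPSwe and tauP301L transgenes that a neuronal Thy1 element drives. The 4 WT-8M and 4 3xTg-8M mice were untreated and 8 months old. All mice of 10 months had gone through surgery and a 28-day infusion into the lateral ventricles. The infusate held 0.8% DMSO alone in the vehicle groups (WT-D, n = 4, and 3xTg-D, n = 4), and it held 80 µM of SCDi, an inhibitor of stearoyl-CoA desaturase, in the same percentage of DMSO in the inhibitor groups (WT-S, n = 3, and 3xTg-S, n = 4). The strains are separate lines, so the transgenes and any other genetic difference cannot be told apart.

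ERK is the last kinase of a relay that runs from growth factor and neurotransmitter receptors through RAS, RAF and MEK. In hippocampal neurons it is switched on by synaptic activity and is needed for lasting synaptic change. Active ERK turns on genes within minutes, and some of these then act back on the pathway. Dual-specificity phosphatases remove phosphate from both the threonine and the tyrosine of the kinase's activation loop, Sprouty proteins act further upstream and dampen signalling from receptor tyrosine kinases, and Ier genes encode short-lived nuclear proteins of the first wave of induced transcripts.

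Library depth was 12.8M to 36.7M gene counts in 8-month mice against 12.99M to 17.6M in 10-month mice, and replicates of a group correlated across genes with r from 0.991 to 0.996. None of the 33 replicate pairs was identical. All 7 neuron markers and all 7 hippocampal neuron markers averaged above 1 CPM (counts per 1000000 gene counts, TMM-scaled) in every group, whereas choroid plexus markers summed to between 3.02 and 340 CPM. Libraries were not labelled by cage, litter or sequencing date. The p-values rest on the spread between libraries of a group, and such unlabelled differences can be part of it. Where they run along with the groups, they cannot be told apart from group differences.

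The promoters of 3 genes are shown because they differ in the letters read by activity-dependent factors. The first 2 genes also varied together among mice by Pearson's r (0.612, permutation test, adjusted p = 0.0498). By Spearman's rho (adjusted p = 0.0616) and without 2 libraries (adjusted p = 0.181) that pair missed the threshold. RefSeq promoter windows (GRCm38.p6, 250 bases before to 50 bases after the start) were at hand for 5 of the 8 genes, namely Dusp1, Dusp5, Dusp6, Spry2 and Ier5. Capitals mark the cyclic AMP response element TGACGTCA, its core TGACG on either strand (CGTCA on the other), and the CArG box of serum response factor, which is CC, then 6 letters A or T, then GG. The windows lie at chr17:26508423-26508722 (minus strand, Dusp1), chr1:155099587-155099886 (minus strand, Ier5) and chr19:53528895-53529194 (plus strand, Dusp5).
Dusp1: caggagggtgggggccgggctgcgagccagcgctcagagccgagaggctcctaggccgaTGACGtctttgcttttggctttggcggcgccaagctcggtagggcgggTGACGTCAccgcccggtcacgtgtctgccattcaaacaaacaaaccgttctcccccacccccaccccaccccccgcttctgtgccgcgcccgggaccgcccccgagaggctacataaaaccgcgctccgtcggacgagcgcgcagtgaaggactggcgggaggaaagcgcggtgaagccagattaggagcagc
Ier5: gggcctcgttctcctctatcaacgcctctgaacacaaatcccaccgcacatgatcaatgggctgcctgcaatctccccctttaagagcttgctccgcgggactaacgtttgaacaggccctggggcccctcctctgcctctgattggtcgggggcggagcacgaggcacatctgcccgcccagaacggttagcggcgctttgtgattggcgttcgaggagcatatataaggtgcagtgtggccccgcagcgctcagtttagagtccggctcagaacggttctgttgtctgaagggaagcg
Dusp5: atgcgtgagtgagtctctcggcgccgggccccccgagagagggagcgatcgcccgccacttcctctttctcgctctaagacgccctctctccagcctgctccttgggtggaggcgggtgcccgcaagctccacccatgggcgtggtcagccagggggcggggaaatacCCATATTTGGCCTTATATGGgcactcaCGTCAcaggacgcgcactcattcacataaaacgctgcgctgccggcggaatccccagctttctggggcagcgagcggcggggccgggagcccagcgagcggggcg
In the Dusp1 window the full element began 143 bases before the start and a further core began 191 bases before it. The Dusp5 window held a pair of adjoining CArG boxes, CCATATTTGG and CCTTATATGG, and 1 core next to them. The core is part of the full element, and both strands were searched for every motif. None of these letters was found in the windows of Ier5, Dusp6 and Spry2. The exact strings TATAAA and CCGGAAG were not found in any of the 5. They are only examples of the letters that TATA-binding protein and ETS factors read. Other forms, such as the TATATAAG of the Ier5 window, were not searched for. Among 32851 mouse promoter windows of the same length, 1.79% held the full element, 20.8% the core, 1.63% a CArG box, 13.6% TATAAA and 8.86% CCGGAAG. These matches are letters in a window and not measured sites.

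Per kilobase of transcript, Dusp6 and Spry2 were the most abundant of the 8 transcripts and Ier2 the least. The mean of the 6 group means was 19.9 CPM per kb for Dusp6, the cytoplasmic phosphatase specific for ERK, and 18.5 CPM per kb for Spry2. It was 12.7 CPM per kb for Ier5, which encodes a partner of heat shock factor, 7.46 for Dusp5, the nuclear phosphatase specific for ERK, and 6.97 for Dusp4, a nuclear phosphatase that growth factors induce. The lowest levels were those of Dusp1, a phosphatase with a wider range that also acts on the stress kinases p38 and JNK, at 6.26 CPM per kb, of Spry4 at 3.03 and of Ier2 at 2.56. Not every step of this order held in single mice. Spry2 was above Ier5, Ier5 above Dusp5 and Dusp1 above Spry4 in 23 of 23 libraries, whereas Dusp6 was above Spry2 and Dusp5 above Dusp4 in 16, and Dusp4 above Dusp1 and Spry4 above Ier2 in 17. Counts behind these levels ran from 26 for Ier2 to 2184 for Dusp6 in a single library, so that Ier2 had the lowest precision.

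The 8 genes differed in how much they varied among mice. The highest library exceeded the lowest 4.57-fold for Ier2 and 3.6-fold for Dusp1, the 2 widest ranges, but only 1.5-fold for Spry2. For Ier2 and Dusp1 the highest library was WT-8M replicate 2 and the lowest 3xTg-D replicate 4, so these ratios also span the 2 ages. The other 5 members lay between 1.72-fold (Dusp4) and 2.11-fold (Dusp5). Over the 23 libraries Dusp4 ran from 14.4 to 24.7 CPM, Dusp6 from 42.2 to 74.2 CPM and Ier5 from 26.8 to 54.6 CPM. Within groups, the median coefficient of variation was 30.0% for Ier2, 22.5% for Dusp1 and 7.95% to 15.2% for the other 6 genes.

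**Figure D1:**
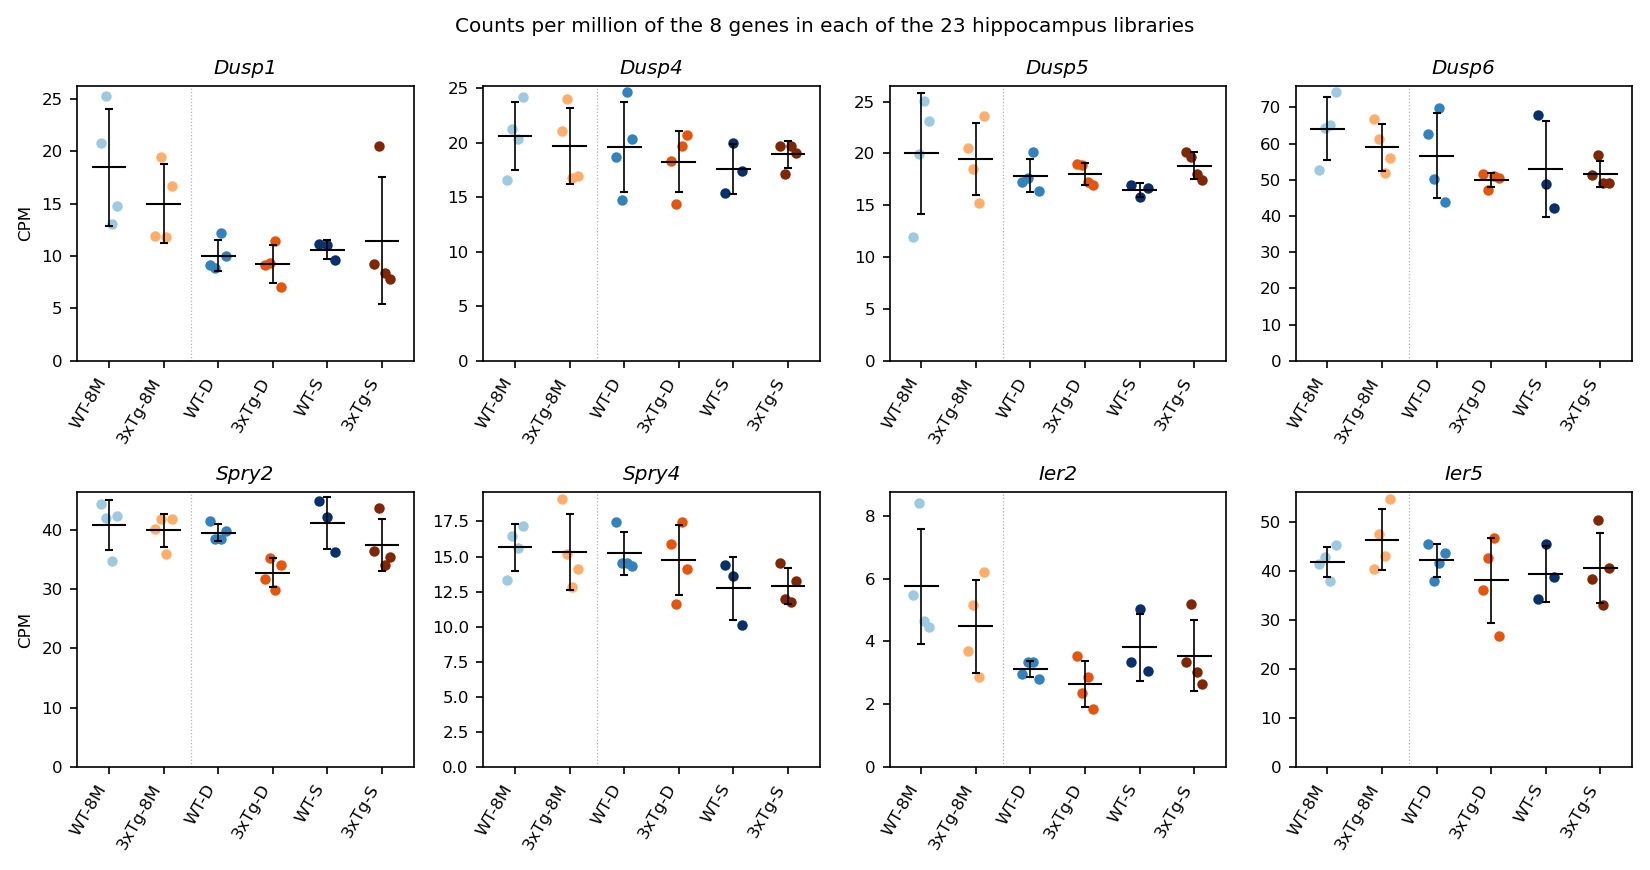
Normalised counts (CPM, linear axis from 0) of the 8 genes in each library. Points are libraries, horizontal bars group means and whiskers SD, and the dotted line parts untreated 8-month mice from infused 10-month mice. Dusp1 in 3xTg-S shows 1 library at 20.5 CPM above 3 libraries between 7.78 and 9.19 CPM, and Spry2 in 3xTg-D lies below WT-D with no overlap.

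The first comparison asked how the untreated 3xTg hippocampus differed from WT at 8 months. None of the 8 genes was called at an adjusted p under 0.05 (edgeR quasi-likelihood test, Benjamini-Hochberg over all genes), where 2.58% of the 15483 genes tested were called, and none reached an unadjusted p under 0.05, where 17.4% of genes did. The groups overlapped for all 8, where 11.3% of genes had groups that did not. Log2 differences lay between -0.35 (Ier2) and 0.14 (Ier5) and were below 0 for 7 of the 8 genes, where 48.7% of all genes were below 0. Spry2, at 40.8 ± 4.24 CPM in WT-8M and 39.9 ± 2.79 CPM in 3xTg-8M (SD, n = 4 each), had a log2 difference of -0.03 with a 95% confidence interval of -0.22 to 0.15. For Dusp1 and Ier2 the intervals, -0.78 to 0.15 and -0.91 to 0.20, were too wide to place a difference on either side of 0.

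The level of Dusp1 was widely spread at this age. In WT-8M the libraries read 20.8, 25.2, 13.1 and 14.8 CPM for Dusp1, and in 3xTg-8M they read 11.9, 19.5, 11.8 and 16.6 CPM. Ier2 read 5.49, 8.41, 4.66 and 4.45 CPM in WT-8M and 3.71, 5.16, 2.86 and 6.20 CPM in 3xTg-8M. The groups overlapped for both genes, and the highest WT-8M library was the same mouse, replicate 2, for both. The third replicate of 3xTg-8M was the lowest of its group for 7 of the 8 genes and for 11 of 17 other immediate-early genes. The same count over all genes is not given.

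The second comparison, at 10 months after vehicle infusion, asked for the strain difference in infused mice. Spry2, which encodes an inhibitor of receptor tyrosine kinase signalling, had the smallest p of the 8 and was the only member whose groups did not overlap. In WT-D it read 41.4, 38.4, 38.4 and 39.7 CPM, and in 3xTg-D 31.7, 35.3, 29.9 and 34.0 CPM. Every 3xTg-D library was below every WT-D library. The 3xTg-D mean of 32.7 ± 2.40 CPM lay below the WT-D mean of 39.5 ± 1.45 CPM (SD, n = 4 each), a log2 difference of -0.28 (SE 0.07, 95% interval -0.43 to -0.13). With an unadjusted p of 0.00152 it stood at rank 305 of 15528 genes, and its adjusted p of 0.0773 in edgeR missed the threshold. DESeq2's likelihood ratio test gave an adjusted p of 0.0356, and the edgeR test without a filter on low counts gave 0.0448, so the call turned on the setting.

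Among the other 7 genes none reached an unadjusted p under 0.05 in that comparison. None of the 8 was called in edgeR, where 1.39% of genes were called, and 1 of 8 reached an unadjusted p under 0.05, where 13.1% did. Groups failed to overlap for 1 of 8 members and for 7.79% of all genes tested. Log2 differences were below 0 for 7 of 8 genes, beside 51.0% of all genes, with a median of -0.14 over the 8 and 0.00 over all genes. Dusp6 averaged 50.04 ± 1.97 CPM in 3xTg-D, against 56.6 ± 11.8 CPM for WT-D (SD, n = 4 each), a log2 difference of -0.18 (95% interval -0.44 to 0.07). Single libraries carried several of these values. 3xTg-D replicate 4 was the lowest of its group for 13 of 17 other immediate-early genes, a count not given for all genes. Without it the difference went from -0.15 to -0.01 for Ier5, from -0.12 to -0.01 for Dusp1 and from -0.23 to -0.10 for Ier2. Without WT-D replicate 3 that of Dusp6 was -0.07. Dusp5 was the nearest to no difference, with a log2 value of 0.01 and an interval of -0.17 to 0.19.

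The sum of the neuron markers also lay apart in these groups. The 7 neuron markers summed to 8560 to 9219 CPM in 3xTg-D, below the 9239 to 9763 CPM of WT-D with no overlap. Taken singly, 0 of the 7 were called in edgeR and 0 reached an unadjusted p under 0.05. Their log2 differences were below 0 for 6 and above 0 for 1, with a median of -0.08. The 6 microglia markers summed to 318 to 499 CPM in 3xTg-D and 325 to 369 CPM in WT-D. All 6 microglia markers had log2 differences above 0, 4 of them at an unadjusted p under 0.05 and 1 called in edgeR. Of the 7 hippocampal neuron markers 3 were lower at an unadjusted p under 0.05 and 0 were called. All 4 thalamus markers had log2 differences above 0, 2 of them at an unadjusted p under 0.05 and 0 called in edgeR. Only 2 of the 6 choroid plexus markers could be tested, and 2 were higher at an unadjusted p under 0.05 with 0 called. Choroid plexus markers summed to 6.82 to 88.0 CPM in 3xTg-D and 4.67 to 12.1 CPM in WT-D. The part of all these markers in the Spry2 difference was not tested. In bulk tissue fewer cells of a type and less RNA per cell cannot be told apart.

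Pooling both treatments gave the strain difference over all 15 libraries of 10 months, with treatment as a term. Spry2 was lower in 3xTg by 0.21 on the log2 scale (log2 difference -0.21, SE 0.06, 95% interval -0.34 to -0.08, adjusted p = 0.0444 in edgeR). It was the only one of the 8 called, beside 6.53% of the 16262 genes tested and 3.36% called lower, and the only one at an unadjusted p under 0.05, beside 19.7%. The WT-S libraries read 44.8, 42.1 and 36.2 CPM for Spry2 and the 3xTg-S libraries 36.4, 43.7, 34.1 and 35.4 CPM, so the inhibitor groups overlapped while the vehicle groups did not. The difference stayed below 0 in all 15 fits that each left out 1 library, between -0.25 and -0.18. The adjusted p crossed 0.05, however, in 13 of those 15 fits (up to 0.114), and stayed under it only without WT-S replicate 3 (adjusted p = 0.0148) and without 3xTg-S replicate 2 (adjusted p = 0.00631). In the same fit 4 of 6 microglia markers and 1 of 6 oligodendrocyte markers were called higher and 2 of 7 hippocampal neuron markers lower, and their part in the Spry2 value was not tested. The libraries of 3xTg-D and WT-D enter both this fit and the vehicle comparison, which are therefore not independent. The other 7 members had log2 differences between -0.17 (Ier2) and 0.09 (Dusp5), with adjusted p-values of 0.431 or more.

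The third question was whether the inhibitor changed the 8 genes. In 3xTg mice (3xTg-S against 3xTg-D) no member was called in edgeR, as no gene was (0% of 15530 tested), and DESeq2's likelihood ratio test called 0 members and 14 genes. The groups overlapped for all 8 members, beside 7.03% of genes without overlap. Spry2 was at an unadjusted p of 0.0432, 1 of 8 members beside 11.2% of all genes, with 37.4 ± 4.32 CPM in 3xTg-S against 32.7 ± 2.40 CPM in 3xTg-D (SD, n = 4 each). Its log2 difference was 0.20 (95% interval 0.01 to 0.38, adjusted p = 0.439 in edgeR). Without 3xTg-S replicate 2, which read 43.7 CPM, that difference was 0.11. Differences were above 0 for 7 of 8 members, beside 49.5% of all genes, with Spry4 the exception at -0.19. This comparison shares the 3xTg-D libraries with the vehicle comparison, so the 2 values for Spry2 are set side by side only. Oligodendrocyte markers summed to 5481 to 6230 CPM in 3xTg-S and 3430 to 5518 CPM in 3xTg-D, and their part in these values was not tested.

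In WT mice (WT-S against WT-D) no member was called or reached an unadjusted p under 0.05, beside 0% and 3.42% of the 15724 genes tested. DESeq2 called none either, and groups overlapped for all 8, beside 4.88% of genes without overlap. Spry4, a second Sprouty inhibitor, had the smallest p (0.0712), with 14.4, 13.6 and 10.2 CPM in WT-S against 17.5, 14.5, 14.5 and 14.3 CPM in WT-D. The interval of its log2 difference of -0.26 ran from -0.55 to 0.03, and without WT-S replicate 3, which read 10.2 CPM, it was -0.11. For Spry2 the WT difference was 0.05 (95% interval -0.12 to 0.23).

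The test of whether the inhibitor's difference depended on strain called no member (0% of genes called), and none of the 8 had an unadjusted p under 0.05, as 2.32% of genes had. For Spry2 the interaction was 0.14 on the log2 scale with an interval of -0.11 to 0.40, so a strain dependence in either direction could not be placed. All 8 interaction estimates were above 0, where 50.6% of all genes were, and all 8 intervals covered 0. The 3xTg-D libraries enter this test, the vehicle comparison and the inhibitor comparison in 3xTg, and some of the 8 genes varied together. Counts of signs over the 8 are therefore not independent, between these comparisons or between genes. The Dusp1 estimate of 0.24 changed sign without 3xTg-S replicate 2 (-0.21), and it kept its sign in the other 14 fits that left out 1 library. That of Ier2, 0.13, kept its sign in 12 of 15 such fits and was -0.11 without the same mouse. Without WT-S replicate 3 the Spry2 estimate was 0.06 and that of Spry4 went from 0.07 to -0.07.

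Averaged over both strains, the inhibitor term had an unadjusted p under 0.05 for 3 of the 8 genes, beside 13.6% of all genes, and none was called (0% of genes in edgeR). DESeq2 called 0 members and 55 genes. For Spry4 the estimate was below 0 (log2 difference -0.23, 95% interval -0.42 to -0.03, adjusted p = 0.301 in edgeR). For Ier2 (0.36, interval 0.02 to 0.71, adjusted p = 0.349) and Spry2 (0.13, interval 0.00 to 0.26, adjusted p = 0.367) it was above 0. Each of the 3 missed the threshold after adjustment. Without 3xTg-S replicate 2 the estimate was 0.24 for Ier2 and 0.08 for Spry2. An unadjusted p under 0.05 held in 12 of 15 fits that each left out 1 library for Spry4, in 8 for Ier2 and in 4 for Spry2.

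In the 2 remaining comparisons, 3xTg-S against WT-D called no member (2.29% of genes), with Spry4 at -0.24 and an adjusted p of 0.246 in edgeR as the 1 of 8 below 0.05 before adjustment (16.9% of genes). Groups overlapped for all 8, beside 10.4% of genes without overlap. There Spry2 was at -0.08 with an interval of -0.25 to 0.09. 3xTg-S against WT-S called none as well (1.32% of genes). Dusp5 was the 1 of 8 at an unadjusted p under 0.05 there (10.6% of genes) and the 1 of 8 without overlap (10.8% of genes). It read 17.0, 15.8 and 16.7 CPM in WT-S and 20.2, 19.6, 18.02 and 17.4 CPM in 3xTg-S, a log2 difference of 0.19 with an adjusted p of 0.468 in edgeR. The gap between the groups was narrow, with 17.0 CPM as the highest WT-S and 17.4 CPM as the lowest 3xTg-S library. The antisense transcript AC137853.2 overlaps the start of Dusp5, so that without strand information their reads could mix.

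**Figure D2:**
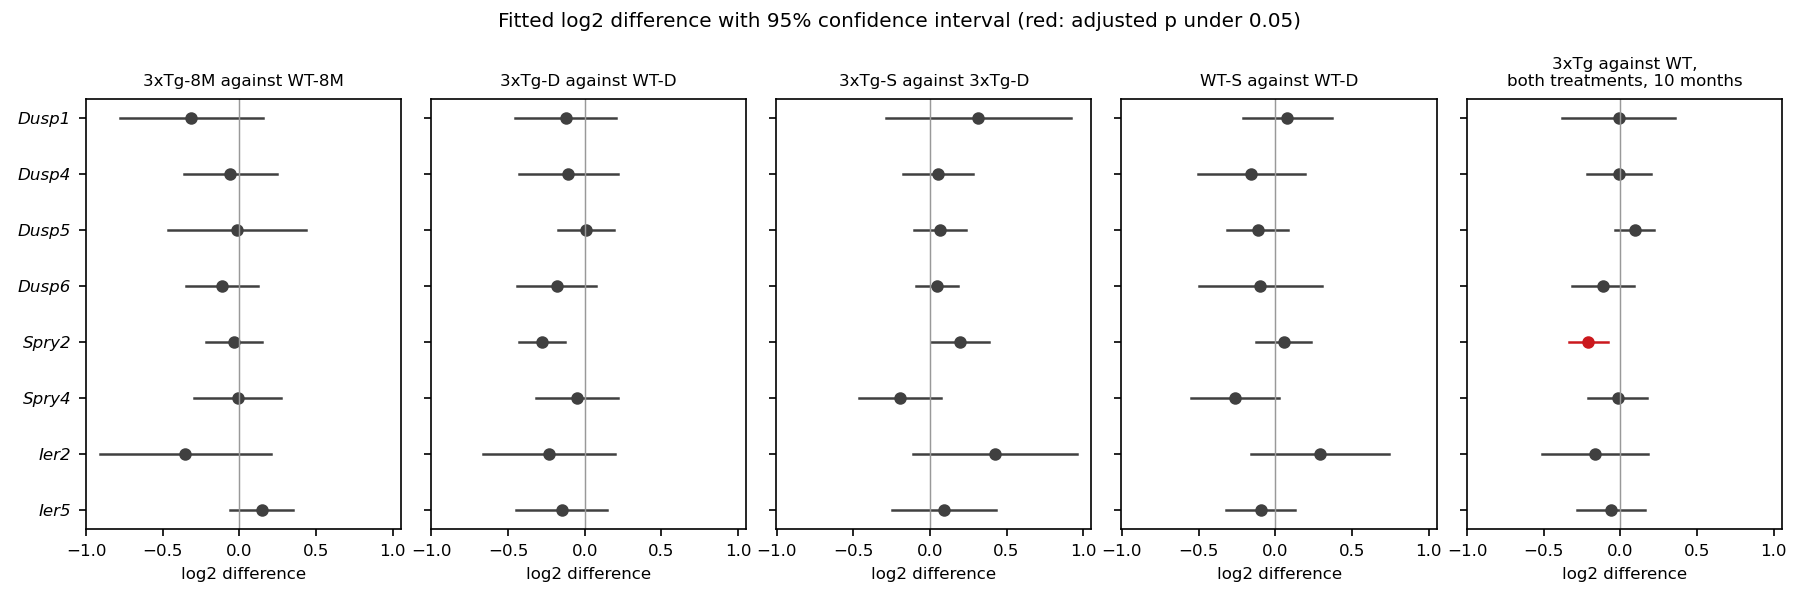
Fitted log2 differences (edgeR, horizontal axis in log2 units) of the 8 genes in 5 comparisons, with points for estimates and lines for 95% confidence intervals. The single estimate at an adjusted p under 0.05, in red, is Spry2 at -0.21 in 3xTg against WT over both treatments.

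Mouse-to-mouse variation within groups linked some of the genes. Each value was taken as log2 CPM minus its group mean over the 23 libraries, and the 28 pairs were tested by permuting libraries within groups (two-sided). Where 2 libraries were left out, the group means were still those of all 23 libraries. Values given without those libraries are therefore not free of them. Dusp1 and Ier2 were the most closely linked pair, with Pearson's r of 0.787 (adjusted p = 0.00728) and Spearman's rho of 0.820 (adjusted p = 0.0042). Their r was 0.861 over the 8 libraries of 8 months and 0.742 over the 15 of 10 months, and it was 0.70 (adjusted p = 0.0650) without the 2 libraries farthest from the median, 3xTg-S replicate 2 and WT-8M replicate 2. Dusp6 and Spry4 followed, with r = 0.607 (permutation test, adjusted p = 0.0438) and rho = 0.639 (adjusted p = 0.0392). Their r was 0.914 at 8 months and 0.475 at 10 months, and it was 0.599 (adjusted p = 0.0650) without WT-S replicate 1 and WT-D replicate 4. Dusp1 and Ier5 passed only by Pearson's r (0.612, adjusted p = 0.0498, with rho 0.602 and adjusted p = 0.0616), and r was 0.556 (adjusted p = 0.181) without the same 2 libraries as for Ier2. Of the 28 pairs, 3 were thus under 0.05 by Pearson's r, 2 by Spearman's rho and 0 without the 2 farthest libraries.

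Correlations among the 8 genes were uneven. Dusp1 had its higher values with Ier2, Ier5 and Spry2, the last at r of 0.576 (permutation test, adjusted p = 0.142), and the 2 Ier genes gave r of 0.564 (adjusted p = 0.105). Dusp1 with Dusp4, Dusp5 and Spry4 gave r of -0.01, -0.05 and -0.06. The 2 Sprouty genes gave r of 0.05, and Dusp4 and Spry2 gave the lowest value (r = -0.17). The 21 positive and 7 negative values ran from -0.17 to 0.79. These libraries share normalisation. Depth differed within the 8-month groups, from 13.2M to 36.7M gene counts in WT-8M and from 12.8M to 32.9M in 3xTg-8M. Over the 10-month libraries it ran from 12.99M to 17.6M. The part of depth in these r values was not tested.

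**Figure D3:**
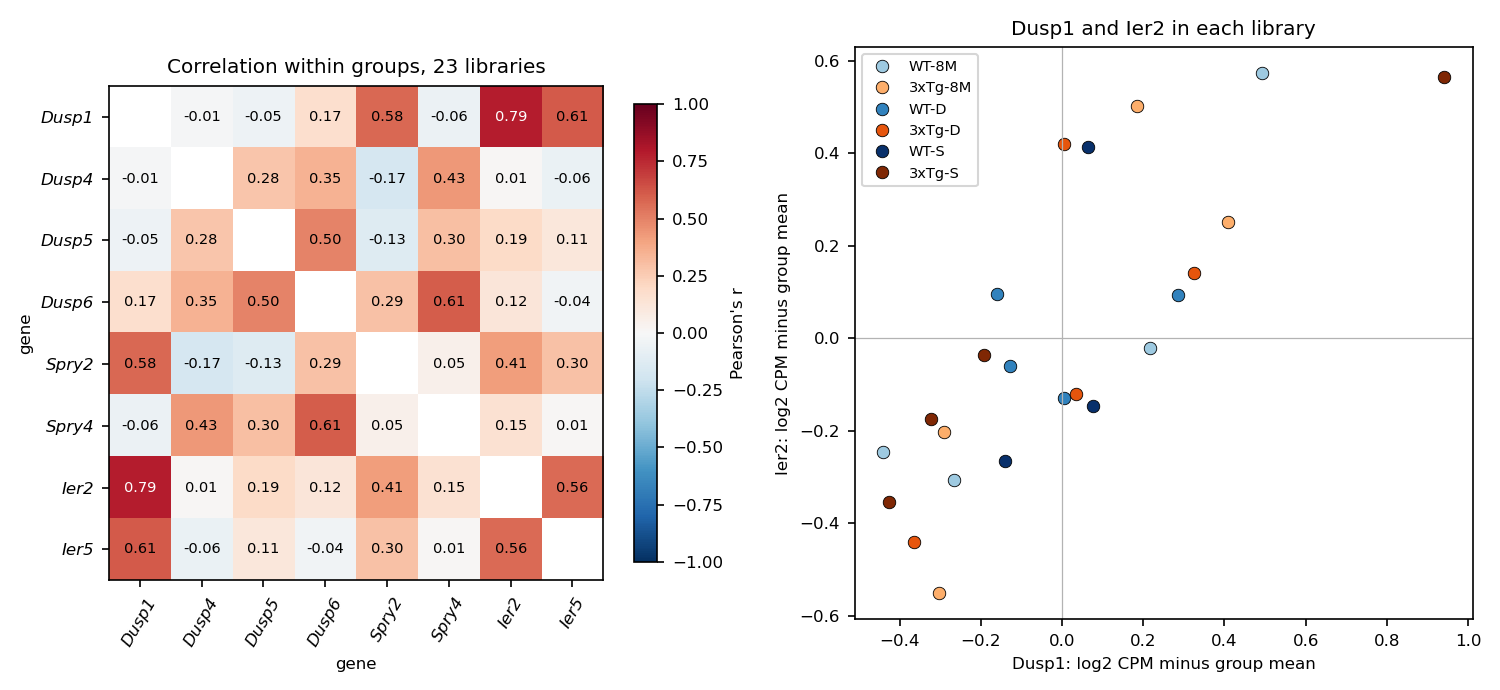
Left, Pearson's r between the 8 genes over 23 libraries after subtraction of the group mean of log2 CPM, on a colour scale from -1 to 1. Right, Dusp1 (horizontal) against Ier2 (vertical) in log2 units from the group mean, with 1 point per library coloured by group. Dusp1 and Ier2 share the highest r, 0.79, and the library farthest to the right is 3xTg-S replicate 2.

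The 3xTg-S replicate 2 library stood apart in the linked genes. Dusp1 read 20.5 CPM there and 9.19, 8.39 and 7.78 CPM in the other 3 mice of the group. Ier2 read 5.20 CPM against 3.35, 3.02 and 2.64 CPM, and Ier5 50.4 CPM against 38.4, 33.2 and 40.6 CPM. By a count not given for all genes, it was the highest of its group for 5 of the 8 genes and for 13 of 17 other immediate-early genes. It also had a lower level of long transcripts, with a slope of log2 expression on log2 length of -0.11, below all other libraries except 3xTg-8M replicate 4 (-0.14), and the part of that in the values was not tested. Markers of other cells stood apart in the same library. Its neuron markers summed to 7974 CPM, the lowest of the 23 libraries, and its oligodendrocyte markers to 6230 CPM, the highest. Blood markers summed to 182 CPM, the highest of the 23, beside 26.6 to 47.2 CPM in the other 3 mice of the group, and choroid plexus markers to 216 CPM beside 3.02 to 12.4 CPM. Their part in its Dusp1, Ier2 and Ier5 values was not tested. Without it the 3xTg-S against 3xTg-D log2 difference of Dusp1 went from 0.31 to -0.13, and that of Ier2 from 0.42 to 0.18.

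Levels at 8 and at 10 months are given side by side without a test, since age, surgery, infusion and library depth differ together and cannot be told apart. The sample titles differ as well, with a letter L before the tissue code at 8 months alone, and they do not give its meaning. Dusp1 averaged 18.5 ± 5.59 CPM in WT-8M beside 10.0 ± 1.52 CPM in WT-D (SD, n = 4 each). In 3xTg its means were 14.96 ± 3.77 CPM untreated and 9.22 ± 1.81 CPM after vehicle. Ier2 averaged 5.75 ± 1.83 CPM in WT-8M and 3.12 ± 0.263 CPM in WT-D. Both genes were higher at 8 months in WT without overlap, 2 of 8 members beside 5.46% of genes averaging 1 CPM or more. In 3xTg, 3 of 8 members were higher without overlap, Dusp1, Dusp6 and Spry2, beside 7.41% of such genes.

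The genes most like each member in this within-group variation, among 11644 genes averaging 5 CPM or more, included other activity-regulated genes for 2 of the 8. Btg2, an immediate-early antiproliferative gene, was the nearest to Dusp1 (r = 0.877, n = 23 libraries), and Nr4a3, an immediate-early nuclear receptor, the nearest to Spry4 (r = 0.757). The other nearest genes were Fam133b for Dusp1 (0.811), Rftn2 for Spry4 (0.740), Aldh1a1 and Rbfox1 for Dusp4 (0.844 and 0.801), Adipor1 and Pfn1 for Dusp5 (0.868 and 0.865), Eif4g2 and Lats2 for Dusp6 (0.878 and 0.849), Ccdc90b and Sept10 for Spry2 (0.763 and 0.761), Esf1 and Lyar for Ier2 (0.846 and 0.842) and Epop and Kcnab3 for Ier5 (0.860 and 0.827). These values were picked as the highest of many and describe the libraries only.

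Around the 8 genes, members of the wider ERK pathway were called in both directions at 10 months, and the counts by list stand beside the 6.53% of all genes called in that fit. In 3xTg against WT over both treatments, 1 of 5 other MAP kinase phosphatases tested was called, Dusp7, a cytoplasmic ERK phosphatase, which was higher by 0.16 on the log2 scale (adjusted p = 0.0115 in edgeR). Of 4 other Sprouty and Spred genes 1 was called, Spred3, a Sprouty-related inhibitor, at -0.17 (adjusted p = 0.0310). Of 9 further ERK output genes 2 were called, both lower. These were Il17rd, another feedback inhibitor of fibroblast growth factor signalling (-0.39, adjusted p = 0.0166), and Etv5, an ETS factor (-0.18, adjusted p = 0.0348). None of the 2 other Ier genes and none of 13 ERK effectors was called.

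Upstream of ERK, 1 of 12 growth factor ligands was called higher and 1 lower. Bdnf, the ligand of TrkB, was lower (-0.35, adjusted p = 0.0172 in edgeR), and Hbegf, a ligand of the EGF receptor, was higher (0.25, adjusted p = 0.0281). Of 12 receptor tyrosine kinases only Met, the receptor of hepatocyte growth factor, was called, and it was higher (0.57, adjusted p = 0.00482). Of 27 core genes of the cascade, the adaptor Frs2 was called higher (0.13, adjusted p = 0.0214) and Rasgrf1, a calcium-dependent activator of RAS, lower (-0.23, adjusted p = 0.0348). Among 17 other immediate-early genes Ccn1, which encodes a secreted matrix protein, was the only one called, at 0.53 (adjusted p = 0.0176), and 13 of the 17 were below 0. Median log2 differences were -0.04 over the 8 genes, -0.08 over the output genes and -0.06 over the other immediate-early genes, beside 0.00 over all genes.

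In the single comparisons fewer of these genes were called. At 8 months Dusp7 (0.36, adjusted p = 0.0129 in edgeR) and Hbegf (0.44, adjusted p = 0.0347) were higher in 3xTg and Bdnf lower (-0.37, adjusted p = 0.0404). In 3xTg-D against WT-D, Ccn1 (0.83, adjusted p = 0.0218) and Met (0.59, adjusted p = 0.0445) were higher. There 13 of 17 other immediate-early genes were below 0, beside 51.0% of all genes. Of the 17, 6 were lower at an unadjusted p under 0.05, beside 13.1% of all genes in either direction. 3xTg-D replicate 4 was the lowest of its group for 13 of the 17, a count not given for all genes. In 3xTg-S against WT-D only Ccn1 was called (0.77, adjusted p = 0.0229). Shares of all genes called were 2.58% at 8 months, 1.39% in 3xTg-D against WT-D and 2.29% in 3xTg-S against WT-D. No gene of these lists was called in 3xTg-S against 3xTg-D, in WT-S against WT-D, in 3xTg-S against WT-S or in the interaction.

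Other genes of these lists with the smallest p in 3xTg-D against WT-D did not pass the threshold, and their values are log2 differences of 3xTg-D minus WT-D. Ccnd1, a cyclin that ERK induces, had a log2 difference of -0.54 (adjusted p = 0.129 in edgeR) and Il17rd one of -0.43 (adjusted p = 0.157). Dusp10, a phosphatase of the stress kinases, stood at -0.40 (adjusted p = 0.241), Spred3 at -0.16 (adjusted p = 0.235) and Spred2 at -0.10 (adjusted p = 0.494). Bdnf stood at -0.37 (adjusted p = 0.131) and Rasgrp1, an exchange factor for RAS, at -0.22 (adjusted p = 0.271). On the other side of 0 were Hbegf at 0.26 (adjusted p = 0.314), Frs2 at 0.15 (adjusted p = 0.192), Dusp7 at 0.12 (adjusted p = 0.392) and 2 more Ier genes, Ier3 at 0.51 (adjusted p = 0.504) and Ier5l at 0.12 (adjusted p = 0.834). Of the kinases downstream of ERK, Rps6ka5 stood at 0.12 (adjusted p = 0.357) and Rps6ka4 at -0.12 (adjusted p = 0.636).

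**Figure D4:**
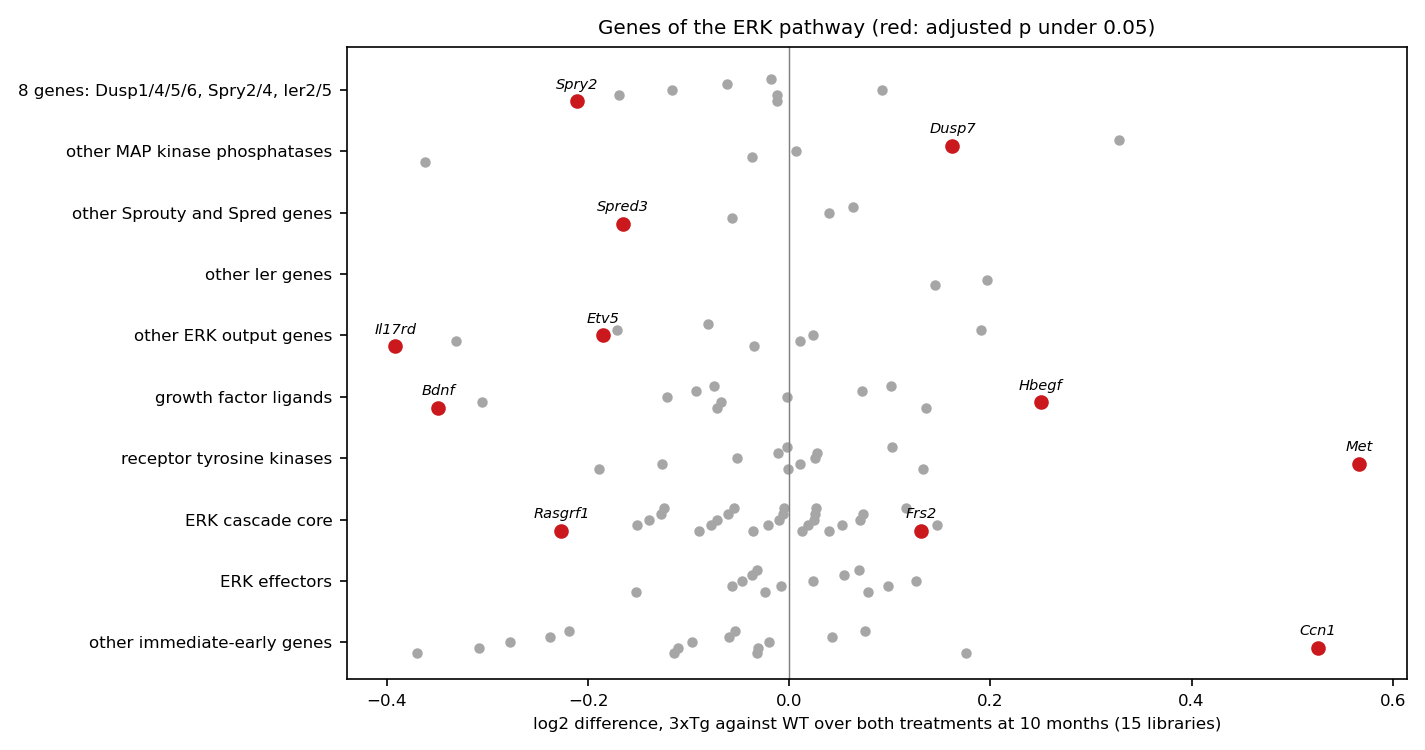
Log2 difference (horizontal axis) of the genes of 10 lists around the ERK pathway in 3xTg against WT over both treatments at 10 months, with 1 point per gene and rows for the lists. Red points have an adjusted p under 0.05, and they run from Il17rd at -0.39 to Met at 0.57 with Spry2 at -0.21.

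On the genome (GRCm38), Dusp1 lies on chromosome 17 from 26505590 to 26562128 on the minus strand, a span that overlaps the start of Ergic1 on the other strand, a sense-intronic RNA and 2 processed pseudogenes. Its counts could include reads of Ergic1 and of the pseudogene Gm8225, both on the other strand, where strand was not used. The sense-intronic RNA AC122252.1 and the pseudogene AC122252.4 lie on the same strand, so strand would not tell their reads apart. The RefSeq promoter window shown for Dusp1, 26508423 to 26508722, lies inside this span and not at its upstream end. Ier2 and Dusp4 lie on chromosome 8, at 84661331 to 84662854 on the minus and 34807297 to 34819894 on the plus strand. Spry2 lies on chromosome 14 from 105891947 to 105896819 (minus strand), with no other annotated gene in its span. Dusp6 lies on chromosome 10 from 99263231 to 99267489 (plus strand), Dusp5 on chromosome 19 from 53529109 to 53542431 (plus strand) and Ier5 on chromosome 1 from 155096361 to 155099636 (minus strand). All values are sums over the exons of each gene.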

How the data were processed

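RNA of flash-frozen hippocampus was sequenced in 23 libraries from poly(A) RNA, read from 1 end. Per the study's methods and the submitters' processing notes, the authors trimmed with Trimmomatic 0.35 and mapped with STAR 2.5.1b to GRCm38, using a Gencode annotation. They deposited raw counts per gene without normalisation. Strand setting and collapsing of molecular identifiers are not given in the sources used here. Reads outside the gene rows (24.7% to 30.9% per library) entered neither library sizes nor tests.

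Comparisons were fitted in edgeR 4.0.16 (R 4.3.3) on the libraries of both groups, with filterByExpr, TMM scaling and the quasi-likelihood test, and the inhibitor, strain and interaction terms on the 15 libraries of 10 months. Genes at a Benjamini-Hochberg adjusted p under 0.05 over all genes are called. SE is the log2 difference over the square root of F. CPM use TMM-scaled library sizes, and lengths are those of the longest protein-coding transcript. Within-group values add 0.25 CPM before the log2, with 100000 permutations. The fits were tested on simulated data. Groups come from the labels, and replicates are numbered in accession order.

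The 8 genes and all lists were chosen with earlier results of these data known. Of the other immediate-early genes 17 were in the table, 1 being listed under 2 symbols. The study itself used a list that holds Dusp1, Ier2 and Ier5. Named genes are all 8, the called genes of each list, the 2 of smallest p in 3xTg-D against WT-D where a list had no call there, and the 2 nearest by r. Sept10, stored as a date in the table, was named by its Ensembl ID. Alternatives were DESeq2 size factors, no filter, the DESeq2 1.42.0 likelihood ratio test, an unadjusted p under 0.01, removal of length and GC trends, a block of animal numbers, 1 fit of all 10-month libraries and each library left out. Intervals cover the spread of these libraries, and counts of reads are not independent molecules. A further allele of the 3xTg strain, and the strain's full label, are not reported here.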

Additional observations from a re-analysis of the deposited data

Results flagged for a closer look

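Spry4 in WT-D held the only library that stood clear of its group in a test of gaps over the 40 sets of 4 libraries, 8 genes in 5 groups. Replicate 1 read 17.49 CPM, above 14.5, 14.5 and 14.3 CPM in the other 3 mice, and chance gives such a gap in about 1 of 20 sets. Dusp1 in 3xTg-S replicate 2, at 20.5 CPM, had a gap of 0.8286 of the group's range on the log scale, just short of the critical value. Without WT-D replicate 1 the Spry4 log2 difference of 3xTg-S against WT-D was -0.17 in place of -0.24.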

How the results depend on the processing

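Of 1192 recomputed member differences 1176 kept their direction where called and their side of the threshold, 3 gained a call and 13 lost one, all of them Spry2. Members called in 3xTg-D against WT-D were 1 in place of 0 without a filter on low counts, by DESeq2's likelihood ratio test and at an unadjusted p under 0.01. Members called for strain over both treatments ranged from 0 to 1 when 1 library was left out. Pairs of genes at an adjusted p under 0.05 were 3 with all libraries. They were 0 without the 2 farthest libraries, with the group means of all libraries kept. The cause was not tested in any of these. Uncalled differences changed sign in 82 cases. Genes called in all changed by over 1.5 times in several settings. Without the filter they were 854 for 399 (3xTg-8M against WT-8M), 792 for 216 (3xTg-D against WT-D), 1135 for 356 (3xTg-S against WT-D), 729 for 206 (3xTg-S against WT-S), 112 for 0 (3xTg-S against 3xTg-D), 2 for 0 (WT-S against WT-D), 94 for 0 (inhibitor) and 8 for 0 (interaction). By DESeq2 they were 684, 386 and 577 in the first 3 and 14 and 55 for 0 in 3xTg-S against 3xTg-D and for the inhibitor, and with all 15 libraries in 1 fit 355 for 216 in 3xTg-D against WT-D. At an unadjusted p under 0.01 they were 1066, 769, 1026, 649, 391, 59, 650 and 57 in the order given for the filter, and 1595 for 1062 for strain. The labels give the groups no shared replicate number. Animal numbers run through the 10-month groups in sets of 4, and a fit with these sets as a replicate block changed no call among the 8 genes (Spry2 -0.28, adjusted p = 0.137 in edgeR, in 3xTg-D against WT-D and -0.21, adjusted p = 0.0327, for strain over both treatments). It gave 78 genes for 206 in 3xTg-S against WT-S.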
